A study of Mus musculus with 3 samples.

Results

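Interferon-induced genes were described in lungs of mice that carried a subcutaneous tumour on the back and in normal lung. The members were 10 genes (Isg15, Ifit1, Ifit2, Ifit3, Irf7, Irf9, Ifi204, Ifi27l2a, Ifi47 and Ifngr1), which had 13 probe sets among the 12422 compared and are 10 of the 8251 genes named by a single symbol. They were chosen by name, with earlier results of these arrays known, so the values below are a description. Total RNA was measured on 3 Affymetrix mouse arrays, from 1 B16-bearing lung sample (B16 lung below, after a mouse melanoma line), 1 LLC-bearing lung sample (LLC lung below, after the Lewis lung carcinoma of mice) and 1 control sample of normal lung. Per the series description, the tumour-bearing mice model the lung that responds to a distant tumour before tumour cells reach it. The labels give no strain, age, sex or number of animals for any group and no treatment of the control mice. With 1 array per group there was no replicate, no test and no standard error, and each difference describes these arrays.

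Interferons are cytokines of antiviral and immune defence. Type I interferons bind the Ifnar1 and Ifnar2 receptor chains and drive a complex that contains Stat2 and Irf9 to the interferon-stimulated response element, a promoter sequence of genes such as Isg15 and the Ifit family. Interferon gamma, made mainly by T and NK lymphocytes, binds Ifngr1 and Ifngr2 and acts at gamma-activated sites, and it induces the immunity-related GTPases, of which Ifi47 is a member. Many genes answer to both kinds of interferon.

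Letters of the response element were found in the promoters of 3 members. A RefSeq promoter window (build GRCm38.p6, 250 bases before to 50 bases after the gene start) was matched by symbol for 8 members. The letters GAAA, any 2 bases and GAAA were searched on both strands, and the stretches that hold matches are shown because they hold the letters of the type I response element in Isg15, Ifit1 and Ifit3. Capitals mark the matched letters, each line is read on the strand of the gene, and overlapping matches run together.
Isg15 (chr4:156200865-156200906, minus strand): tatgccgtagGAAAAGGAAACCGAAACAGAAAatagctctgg
Ifit1 (chr19:34640775-34640823, plus strand): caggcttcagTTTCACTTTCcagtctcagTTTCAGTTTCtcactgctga
Ifit3 (chr19:34583363-34583426, plus strand): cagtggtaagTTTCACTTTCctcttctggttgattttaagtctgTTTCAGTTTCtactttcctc

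Isg15 held 3 overlapping matches that began 78, 72 and 66 bases before the gene start. Ifit1 held 2, beginning at 104 and 85 bases before it, and Ifit3 held 2, beginning at 156 and 122 bases before it. Of all genes in the table, 3.99% (1079 of 27025) had a match. Among the listed genes with a window, 16 of 40 other type I interferon-induced genes and 13 of 27 interferon gamma-induced genes had one.

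The letters of the gamma-activated site, TTC, any 3 bases and GAA, read the same on both strands and overlapped none of these matches. They were found in 1 member, Ifit2, beginning 241 bases before the start of 1 of its 2 windows, and in 9.55% of all genes. The stretch is shown as the only such match in the windows of the 8 members.
Ifit2 (chr19:34550444-34550471, plus strand): catgggagcTTCCTGGAAgaatggataa

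The windows of Irf7, Irf9, Ifi47 and Ifngr1 held neither set of letters. A match is a description of the sequence and was not measured as a bound site. Ifit1, Ifit2 and Ifit3 lie in a stretch of chromosome 19 with 6 protein-coding genes in all, every one of them an Ifit gene by symbol.

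**Figure D1:**
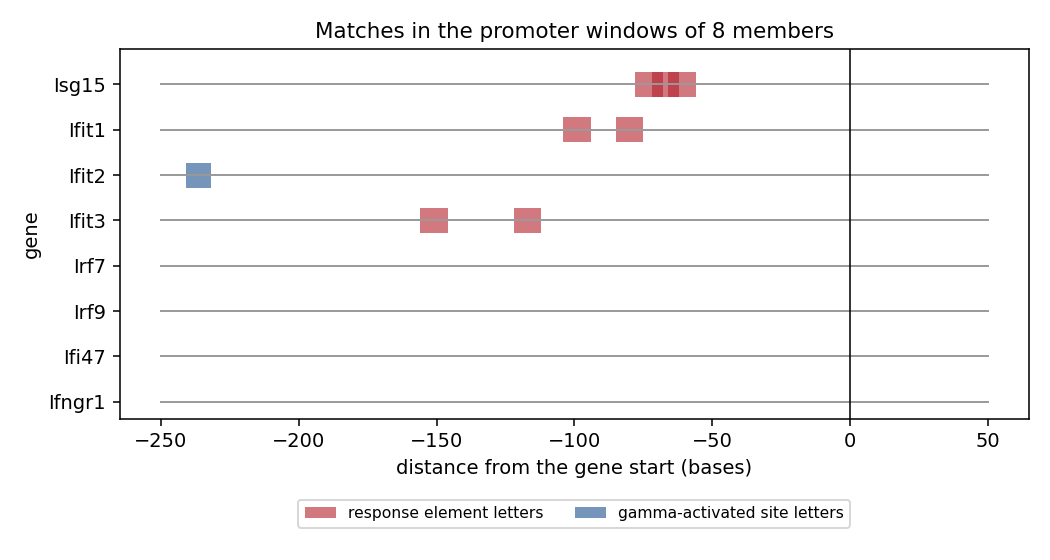
Positions of the letters GAAA, any 2 bases and GAAA (red, response element) and TTC, any 3 bases and GAA (blue, gamma-activated site) in the RefSeq promoter windows of 8 members, against the distance from the gene start in bases. Isg15, Ifit1 and Ifit3 hold 3, 2 and 2 matches to the response element, and Ifit2 holds 1 match to the gamma-activated site; where a gene has 2 windows, they are drawn on 1 line.

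Signals are in arbitrary units, scaled so that the arrays agree over the brighter probe sets. A signal under a floor of 23.6, the 40th percentile of all values, was set to the floor before differences were computed. A gene counted as measured when at least 1 of its arrays was above the floor. Against a signal below the floor only the smallest possible fold is known, marked by the words at least. A difference of 2-fold or more was counted as a call. Sftpc, a surfactant protein of alveolar type 2 cells, read 7482 and 7298 in the B16 and LLC lungs, against 6206 in the control lung. Each array thus held lung RNA. It does not follow that a sample held lung alone, and hepatocyte markers summed to 5010 in the LLC lung, against 209 in the control lung. The members were dim. Their brightest signal was 189, and 7 of the 13 probe sets were above the floor on all 3 arrays.

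**Figure D2:**
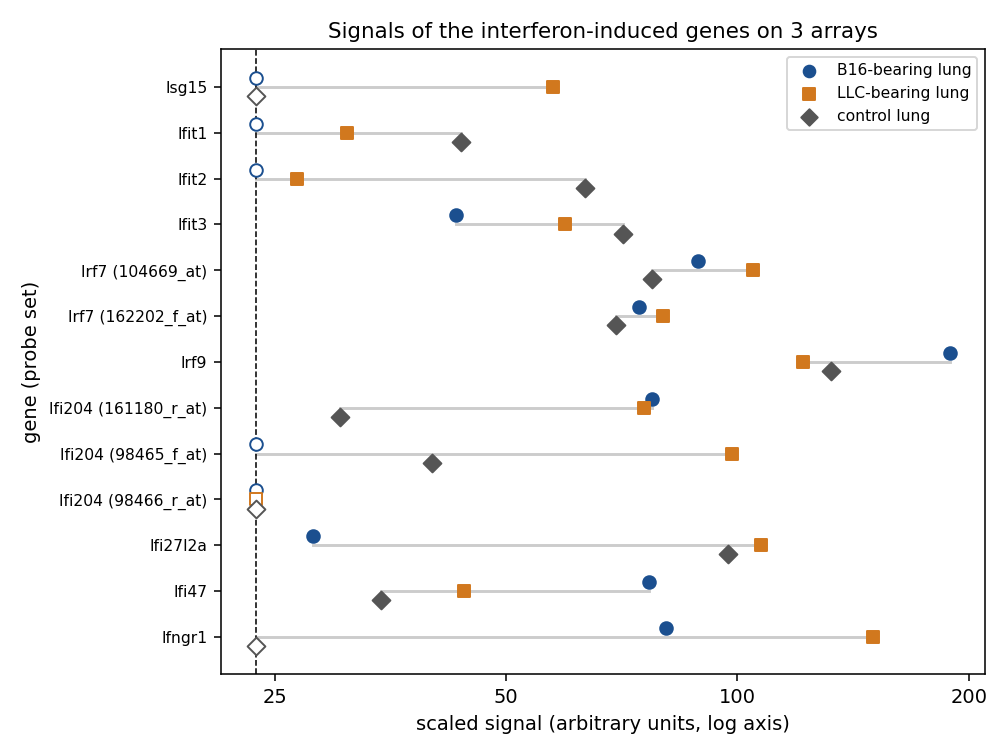
Scaled signal (arbitrary units, log axis) of the 13 probe sets of the 10 members in the B16 lung (circles), the LLC lung (squares) and the control lung (diamonds). Open symbols at the dashed line are signals at or below the floor of 23.6; the Ifit probe sets are highest in the control lung, Ifi47 is highest in the B16 lung, and Isg15 is above the floor in the LLC lung alone.

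The type I response genes lay on both sides of the control lung. Of 7 type I response genes, 6 were measured in the B16 lung against control, 4 of them lower and 2 higher, with a median log2 difference of −0.80. The values of Ifit1 and Ifit2 in that comparison are bounds set by the floor, so the median depends on the floor. Over all genes measured there, 49.3% were higher and 50.7% lower by any amount. Ifi47, Ifi204 and Ifngr1 were higher there on their brightest probe sets, with a median of 1.35 that is the value of Ifi204, whose second probe set lay below control (−0.76). In the LLC lung 3 of the 7 were higher and 4 lower (median −0.12; 49.9% and 50.1% of all genes), and Ifi47, Ifi204 and Ifngr1 were again higher (median 1.32). Both comparisons use the same control array.

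The 3 Ifit genes, which encode tetratricopeptide proteins that bind viral RNA and hold back its translation, were lower in both tumour-bearing lungs. Ifit2 had a signal of 1.481, below the floor, in the B16 lung and 26.7 in the LLC lung, against 63.3 in the control lung. The difference was at least 2.68-fold lower in the B16 lung and 2.37-fold lower in the LLC lung (log2 differences of −1.42 and −1.24). These were the only Ifit differences past 2-fold. Of all measured genes, 4.73% were lower by 2-fold or more in the B16 lung than in the control lung and 2.98% in the LLC lung, so the call of Ifit2 is among 282 and 179 such genes. In both lungs at once, 1.39% of genes were lower by 2-fold or more.

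Ifit1 had 12.8, below the floor, in the B16 lung and 31.1 in the LLC lung, against 43.7 in the control lung. It was at least 1.85-fold and 1.41-fold lower (−0.89 and −0.49). Its control signal is too close to the floor for a 2-fold lower value to be measured. Ifit3 had 43.0 and 59.6 in the B16 and LLC lungs, against 70.9 in the control lung, and was above the floor on every array (−0.72 and −0.25). The order was the same for all 3 genes, with the B16 lung lowest and the control lung highest. The 3 genes are neighbours in the genome, and cross-hybridisation between them was not tested.

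Isg15, a ubiquitin-like protein that is joined to other proteins after interferon exposure, did not follow the Ifit genes. Its signal was 57.5 in the LLC lung, while it was −14.2 in the B16 lung and −28.6 in the control lung, both below the floor. The LLC lung was therefore at least 2.44-fold above each of the other lungs (log2 1.28), and the B16 lung could not be compared with control. Of the measured genes, 3.95% were higher by 2-fold or more in the LLC lung than in the control lung.

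Ifi27l2a, a small interferon-induced protein known as Isg12, was low in the B16 lung. It had 28.0 there and 107 in the LLC lung, against 97.1 in the control lung. All 3 signals were above the floor, the B16 lung stood below both other lungs, and the LLC and control lungs were close. It was 3.46-fold lower in the B16 lung than in the control lung (−1.79), and 0.687% of measured genes lay at least as far below. The LLC lung differed from control by 1.11-fold (0.14).

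The regulators Irf7 and Irf9 showed smaller differences. Irf7, the transcription factor that amplifies type I interferon production, had 88.9 and 105 in the B16 and LLC lungs, against 77.4 in the control lung (0.20 and 0.44). Its second probe set, of a kind that can bind related genes, had 74.3 and 80.0, against 69.5 in the control lung, in the same order (0.10 and 0.20). Irf9, the DNA-binding partner of Stat2, had 189 in the B16 lung and 122 in the LLC lung, against 132 in the control lung. It was 1.43-fold higher in the B16 lung (0.52) and 1.09-fold lower in the LLC lung (−0.12). None of these differences was past 2-fold.

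Ifi47, an immunity-related GTPase that acts on vacuoles of intracellular pathogens, was highest in the B16 lung. It had 76.8 there and 44.1 in the LLC lung, against 34.4 in the control lung. The difference was 2.23-fold in the B16 lung and 1.28-fold in the LLC lung (1.16 and 0.36). In the B16 lung 3.23% of measured genes were higher by 2-fold or more than control.

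Ifi204 encodes p204, a DNA-binding protein of the HIN-200 family, and its probe sets disagreed. On the brightest, whose name marks relaxed design rules, it had 77.4 and 75.7 in the B16 and LLC lungs, against 30.4 in the control lung. These are 2.55-fold and 2.49-fold higher (1.35 and 1.32). On the second, which can bind related genes, it had 19.6, below the floor, in the B16 lung and 98.4 in the LLC lung, against 40 in the control lung. That is at least 1.70-fold lower in the B16 lung (−0.76) and 2.46-fold higher in the LLC lung (1.30). The third was below the floor on all arrays. A higher signal in the LLC lung was thus read by both measured probe sets, and for the B16 lung they lay on opposite sides of control.

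Ifngr1, the ligand-binding chain of the interferon gamma receptor, is a receptor gene that most cells express and not a classical induced gene. It had 80.7 in the B16 lung and 149.9 in the LLC lung, against 10.2, below the floor, in the control lung. It was at least 3.42-fold and 6.35-fold higher (1.77 and 2.67). With signals under the floor counted as the floor, in the LLC lung 11 of 6000 measured genes (0.183%) were at least as far above control, and in the B16 lung 36 of 5968 (0.603%). The control signal alone was below the floor, so Ifngr1 could only be higher in both. Over all genes measured in both comparisons, 1.13% were higher by 2-fold or more in both lungs.

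**Figure D3:**
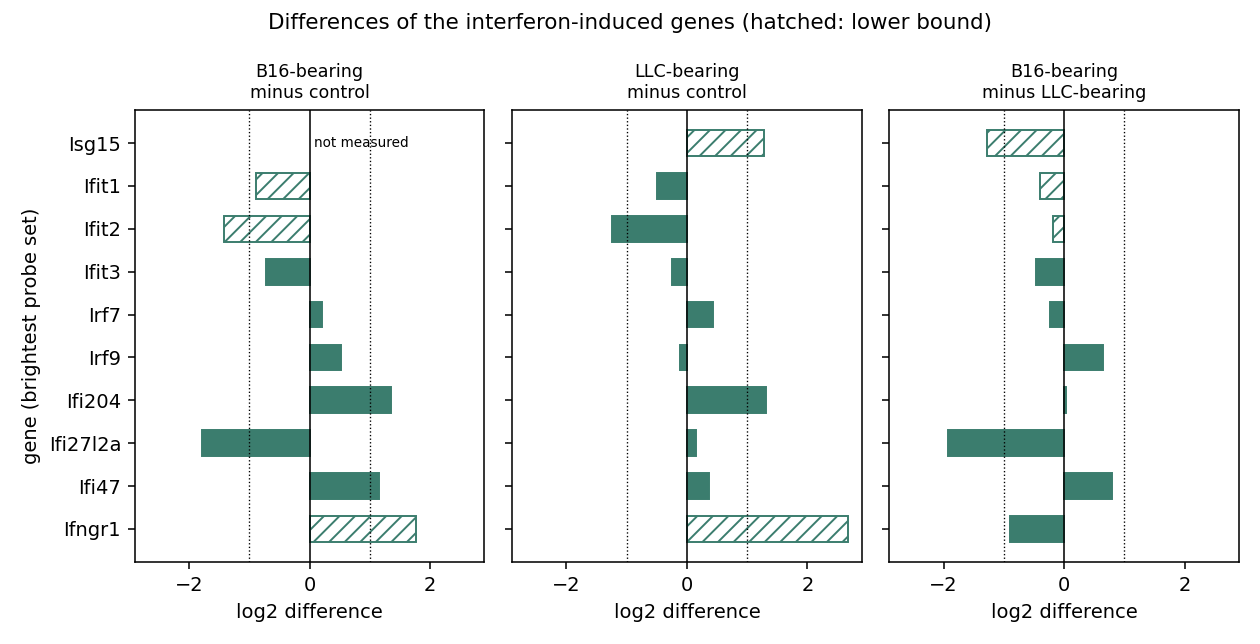
Log2 difference of each member's brightest probe set in the 3 comparisons, each titled with the order of subtraction. Hatched bars are lower bounds, because 1 side was below the floor, and dotted lines mark 2-fold; Ifngr1 and Ifi204 are past 2-fold higher in both tumour-bearing lungs and Ifit2 is past 2-fold lower in both.

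Counted over the members, 3 of 9 measured were higher by 2-fold or more in the B16 lung than in control and 2 lower by 2-fold or more. For the LLC lung 3 of 10 were higher by 2-fold or more and 1 lower by 2-fold or more. Over all measured genes the shares given above were 3.23% higher and 4.73% lower in the B16 lung, and 3.95% higher and 2.98% lower in the LLC lung. Because the members were chosen with these values known, nothing is read from the larger shares. With the floor raised to the 60th percentile (a signal of 71.3), 0 members were higher and 0 lower by 2-fold or more in the B16 lung and 1 was higher and 0 lower in the LLC lung, and with a pseudocount of 32 in place of the floor 1 was higher in the B16 lung. Of 9 members measured in both comparisons, 4 were higher in both, 3 lower in both and 2 on opposite sides, against 32.1%, 35.7% and 32.3% of all genes measured in both.

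How often genes passed 2-fold differed with their brightness. Among genes whose brighter signal lay between 50 and 100, which holds 7 of the 9 members measured in the B16 lung and 4 of 10 in the LLC lung, 17% differed by at least 2-fold either way between the B16 and control lungs, and 14.6% between the LLC and control lungs. Between 100 and 200 the shares were 9.42% and 8.01%, and above 200 they were 3.57% and 3.1%. Between the floor and 50, where only a signal at least 2-fold above the floor can pass, they were 1.93% and 1.67%. No member reached 200.

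**Figure D4:**
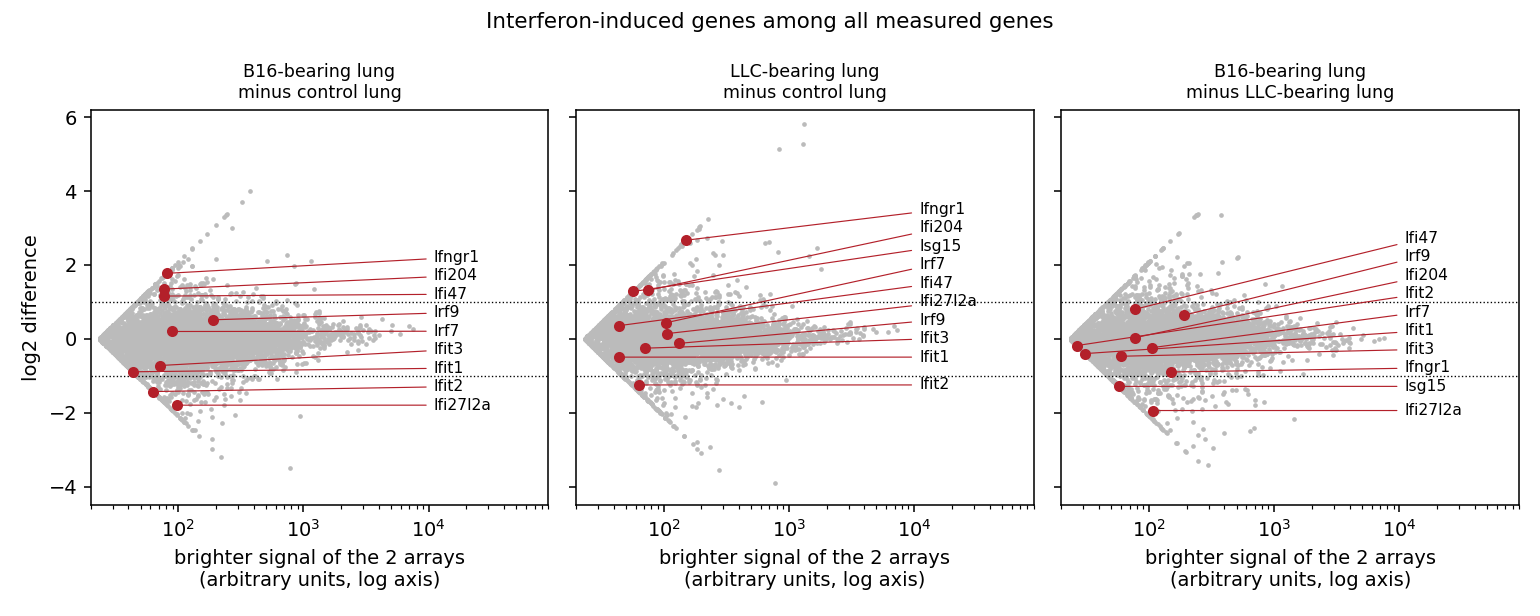
Log2 difference against the brighter signal of the 2 arrays compared (arbitrary units, log axis) for all measured genes (grey) and the members (red, labelled), with dotted lines at 2-fold. The members lie at signals under 200, where the grey points spread widely, and the slanted edges are genes with 1 side at the floor.

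Between the tumour-bearing lungs, 7 of the 10 members were lower in the B16 lung than in the LLC lung, 2 of them at least 2-fold, and none was higher by 2-fold or more. Over all measured genes 52.3% were lower by any amount, 3.41% were higher by 2-fold or more and 4.95% lower by 2-fold or more. Ifi27l2a was 3.83-fold lower (−1.94) and Isg15 at least 2.44-fold lower (−1.28). Ifngr1 was 1.86-fold lower (−0.89). Ifi47 and Irf9 were the members with the larger differences in the other direction, 1.74-fold and 1.56-fold higher (0.80 and 0.64). The second probe set of Ifi204 was at least 4.17-fold lower in the B16 lung (−2.06), whereas the brightest differed by 0.03. For scale, the robust SD of the difference between the tumour-bearing lungs over all genes with a brighter signal between 50 and 100 was 0.52. Between 100 and 200, where Irf7, Irf9, Ifi27l2a and Ifngr1 lie, it was 0.44.

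Other genes of the pathway were taken from 3 lists, which do not contain the members. These lists were also chosen with earlier results of these arrays known. The first held 32 other type I interferon-induced genes on the arrays. In the B16 lung 0 of 27 measured were higher by 2-fold or more than control and 1 was lower by 2-fold or more, with a median log2 difference of 0.029. Over all measured genes 3.23% were higher and 4.73% lower by that much. In the LLC lung 1 of 28 was higher and 1 lower by that much, against 3.95% and 2.98% of all genes. There 21 lay above control by any amount (median 0.25, against 49.9% of all genes above control and a median of −0.00047). Eif2ak2, the RNA-activated kinase PKR, was below the floor in both tumour-bearing lungs, against 49.4 in the control lung, which is at least 2.09-fold lower in each. Ifi202b, a HIN-200 gene like Ifi204, had 47.95 in the LLC lung and was below the floor in the B16 and control lungs. Trim30a, a ubiquitin ligase family member, had 20.1, below the floor, in the B16 lung and 63.1 in the LLC lung, against 36.4 in the control lung. Sp100, a nuclear body protein, was below the floor in the B16 lung and had 47.6 in the LLC lung, against 46.2 in the control lung.

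The second list held 28 interferon gamma-induced genes. In the B16 lung 2 of 27 measured were higher by 2-fold or more than control and 1 lower by 2-fold or more (median −0.019). Over all measured genes 3.23% were higher and 4.73% lower by that much. In the LLC lung 2 of 28 were higher by 2-fold or more and 0 lower, against 3.95% and 2.98% of all genes. There 23 lay above control by any amount (median 0.28), against 49.9% of all genes. The genes past 2-fold in both lungs were Igtp and Iigp1, immunity-related GTPases like Ifi47. Igtp had 189.6 and 189.9 in the B16 and LLC lungs, against 86.6 in the control lung, a 2.19-fold higher value in each. Iigp1 had 263 and 242, against 110.8 in the control lung. These are 2.37-fold and 2.18-fold higher. Its second probe set read 39.98 and 75.3, with control below the floor, and was higher in both as well. Of the 5 GTPases of this family among the members and lists, 4 were above control in the B16 lung and 5 in the LLC lung. Over all measured genes 49.3% and 49.9% were above control. The group was formed after the values were seen, so nothing is read from its counts. Irgm2 was 1.51-fold higher in the B16 lung, and Irgm1 differed by −0.14.

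Other genes of this list differed between the tumour-bearing lungs. Ccl5, a chemokine of T cells and other leukocytes, had 127 in the B16 lung and 414 in the LLC lung, against 348.9 in the control lung. It was 2.74-fold lower in the B16 lung than in control. Psmb10, a subunit of the immunoproteasome, had 142 and 324, against 162.7 in the control lung. Cybb, the NADPH oxidase subunit of phagocytes, had 50.2 and 103.6, against 71.1 in the control lung. Irf1, a transcription factor induced early by interferon gamma, had 734 and 646, against 548 in the control lung (0.42 and 0.24).

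The third list held 23 interferons, receptors and signalling genes. In the B16 lung 0 of 14 measured were higher by 2-fold or more than control and 2 lower by 2-fold or more (3.23% and 4.73% of all genes). In the LLC lung 2 of 13 were higher and 0 lower by that much (3.95% and 2.98% of all genes). Ifng, the interferon gamma gene, was below the floor on all 3 arrays, with a highest signal of 20.2 in the LLC lung. Ifngr2, the second receptor chain of interferon gamma, and Tyk2, a kinase of the type I receptor, were also below the floor throughout. Ifnar1, a type I receptor chain, had 22.5, below the floor, in the B16 lung and 28.1 in the LLC lung, against 50 in the control lung. It was at least 2.12-fold and 1.78-fold lower. Ifnar2, its partner, had 87.7 and 91.4 on its brightest probe set, against 71.6 in the control lung (0.29 and 0.35). Its second probe set had 71.1 and 63.8, against 75.6 in the control lung (−0.09 and −0.24), so the 2 lay on opposite sides of control. The kinases Jak1 and Jak2 differed from control by at most 1.21-fold in either lung. No probe set carried Stat2 as its single symbol, and it is not analysed here.

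Socs3, an inhibitor of cytokine signalling, had 62.5 in the B16 lung and 147.7 in the LLC lung, against 58.8 in the control lung, 2.51-fold higher in the LLC lung. Its second probe set had 66.7 and 103, against 68 in the control lung. Irf5, a transcription factor of macrophages and dendritic cells, had 44.1 and 122.5, against 56.7 in the control lung. Ptpn6, the leukocyte phosphatase SHP-1, was below the floor in the B16 lung and had 109 in the LLC lung, against 73.4 in the control lung.

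**Figure D5:**
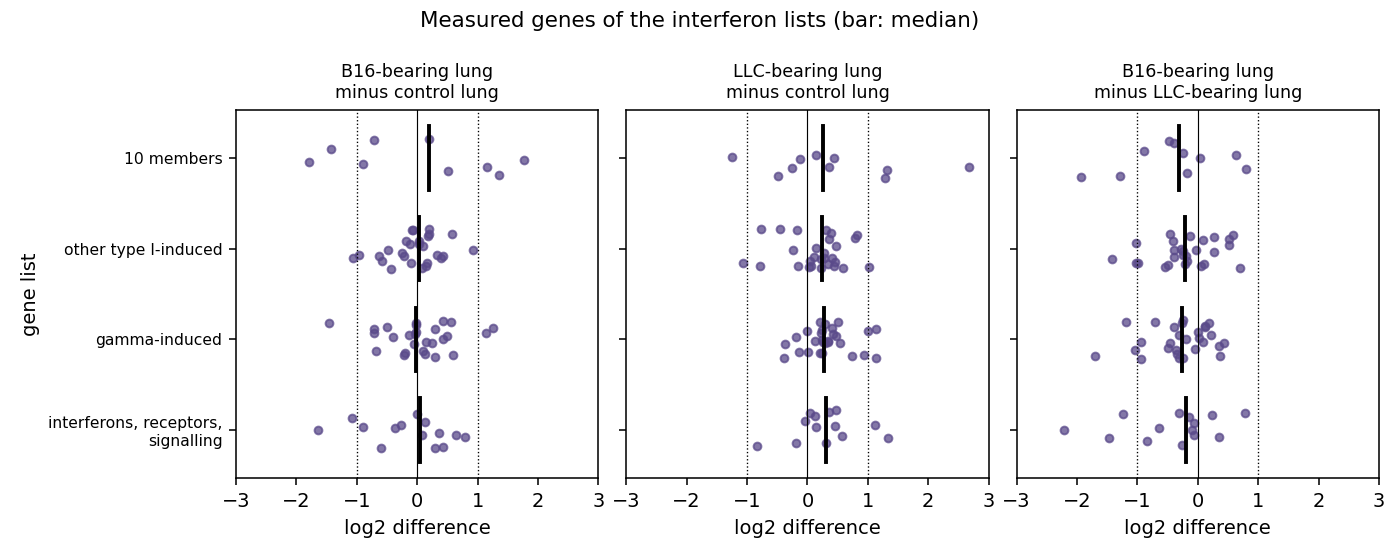
Log2 difference of the measured genes of the members and of the 3 pathway lists in each comparison, 1 point per gene, with the median as a black bar and dotted lines at 2-fold. In the LLC lung against control the medians of the 4 groups lie between 0.25 and 0.31, and between the tumour-bearing lungs no point lies higher by 2-fold or more in the B16 lung.

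Taking the members and the 3 lists as 93 genes, 79 were measured between the tumour-bearing lungs. Of these, 0 were higher by 2-fold or more and 11 lower by 2-fold or more in the B16 lung than in the LLC lung. Over all measured genes 3.41% were higher and 4.95% lower by that much. By any amount, 55 were lower and 24 higher (52.3% and 47.7% of all genes). The median was −0.25, against −0.023 over all genes. The 11 were Isg15, Ifi27l2a, Ifi202b, Trim30a, Sp100, Psmb10, Cybb, Ccl5, Irf5, Ptpn6 and Socs3. For Isg15, Ifi202b, Trim30a, Sp100 and Ptpn6 the B16 signal was below the floor, so their folds are lower bounds. Against control, 5 of 77 were higher by 2-fold or more and 6 lower in the B16 lung, and 8 of 79 higher and 2 lower in the LLC lung. The shares over all measured genes were 3.23% and 4.73% in the B16 lung, and 3.95% and 2.98% in the LLC lung. The 10 members and the 3 lists in these counts were chosen with earlier results of these arrays known, so the counts are a description.

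Markers of several cell types also differed between the tumour-bearing lungs. Of 9 measured macrophage and monocyte markers, 8 were lower in the B16 lung than in the LLC lung, against 52.3% of all measured genes. The summed signal of the 11 on the arrays was 3568 in the B16 lung and 5524 in the LLC lung, against 4605 in the control lung. Adgre1 and Marco, markers of macrophages, were below the floor on every array. On their brightest probe sets, all 10 measured neutrophil markers were higher than control in both tumour-bearing lungs (32.1% of all genes measured in both). Of these 10 markers, 8 were lower in the B16 lung than in the LLC lung. The neutrophil sums were 3243 and 4911, against 1650 in the control lung. Another probe set of Csf3r, 1 of these markers, read 55.8 and 284.8, against 108.4 in the control lung. On that probe set the B16 lung was 1.94-fold lower than control (−0.96). The remaining measured probe sets of these markers were higher than control in both tumour-bearing lungs. Of T and NK markers 7 were measured, 4 of them lower in the B16 lung than in the LLC lung, which is near the share of all genes, with sums over the 16 on the arrays of 631 and 766, against 723 in the control lung. Gzma, a granule protease of cytotoxic lymphocytes, had 49.4 and 154, against 133 in the control lung. It was the only 1 of the 7 past 2-fold between the tumour-bearing lungs. In the other direction 3 of the 7 were higher in the B16 lung. Cd4, 1 of these, had 168 and 109, against 124 in the control lung. Cd3d, Cd3e, Cd3g and Cd8a were below the floor throughout. B lymphocyte markers summed to 647 and 736, against 1132 in the control lung, and 7 of 8 measured were below control in each tumour-bearing lung. Over all measured genes 50.7% were below control in the B16 lung and 50.1% in the LLC lung. The 7 dendritic cell markers summed to 424 and 437, against 353 in the control lung, and 4 of 5 measured were lower in the B16 lung than in the LLC lung. Hepatocyte markers summed to 5010 in the LLC lung and to 264 in the B16 lung, against 209 in the control lung. All 11 measured were lower in the B16 lung than in the LLC lung, 10 of them by 2-fold or more (4.95% of all genes). Melanocyte markers summed to 186 and 371, against 191 in the control lung. Of 4 measured, 3 were lower and 1 higher in the B16 lung than in the LLC lung. Dct, a pigment enzyme, had 195.9 in the LLC lung and was below the floor in the B16 and control lungs. Pmel went the other way, with 78.6 and 40.7 in the B16 and LLC lungs, against 85.9 in the control lung. It was 2.11-fold lower in the LLC lung than in control. Epithelial sums were 18767 and 17921, against 16081, and endothelial sums 6435 and 5945, against 5807 in the control lung. Of 6 epithelial markers 4 were higher in the B16 lung than in the LLC lung, and of 7 endothelial markers 3 were (47.7% of all genes). The part of these cell types in the interferon-induced genes was not tested. In bulk tissue, fewer cells of a type and less RNA per cell cannot be told apart.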

How the data were processed

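Per the labels' protocols, frozen tissue was extracted with TRIzol, and the total RNA gave biotin-labelled cRNA. Each probe set has 1 deposited intensity per array, on a linear scale. Between 20.2% and 21.0% of them per array are negative, so background had been subtracted. The array software is not given in the sources used here. Arrays have no read depth, and their number (1 per group) limits the precision.

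After 66 control probe sets were left out, 12422 remained, of which 10833 had a single gene symbol in GEO's platform annotation, 396 several and 1193 none. Each array was multiplied by a factor (0.987, 1.01 and 1 for the B16, LLC and control arrays) that set the median log2 ratio to control to 0 over probe sets brighter than the median. Signals under 23.6 (40th percentile) were set to it. The brightest probe set stood for a gene. Differences of 2-fold or more were counted, with no test. The steps were tested on simulated arrays. Folds were planted there only in probe sets brighter than most members, so the test does not cover folds at signals as dim as theirs. Members and gene lists were chosen with earlier results of these data known. Of the pathway lists, genes at least 2-fold different in any comparison were named, as were Ifnar1, Ifnar2, Ifngr2, Jak1, Jak2, Tyk2, Stat2, Irf1 and Ifng; 1 further item is not reported here. Promoters came from RefSeq (GRCm38.p6). Python 3.11.15, numpy 2.4.6 and pandas 2.3.3 were used. The closing section gives the effect of 7 alternative settings of scaling, floor and probe set.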

Additional observations from a re-analysis of the deposited data

Results flagged for a closer look

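Irf9 and Ifi27l2a lay on opposite sides of the control lung in the B16 and LLC lungs. The log2 difference from control was 0.52 in the B16 lung and −0.12 in the LLC lung for Irf9, and −1.79 and 0.14 for Ifi27l2a. With 1 array per group the difference between the lungs was not tested, and 32.3% of all genes measured in both comparisons lay on opposite sides as well.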

How the results depend on the processing

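No paired analysis was possible because each group has 1 array. Unscaled values, factors from all probe sets above the floor and quantile normalization kept the direction and the 2-fold side of all 29 member differences. The floor mattered most, since the members are dim. With the floor at the 60th percentile (a signal of 71.3), 0 members were higher by 2-fold or more and 0 lower in the B16 lung than in control, 1 was higher and 0 lower in the LLC lung, 0 were lower by 2-fold or more in the B16 lung than in the LLC lung, and 0 were lower than control by any amount in both. With a floor at a signal of 100, each of these counts and the count of members higher in both were 0, with 1 member measured in the B16 lung against control. With a pseudocount of 32 in place of the floor, 1 member was higher by 2-fold or more in the B16 lung and 0 were lower by 2-fold or more in the LLC lung. Averaged over its probe sets, Ifi204 was lower in the B16 lung than in the LLC lung (−1.01) and 0.29 above control in the B16 lung. Of the 29 differences under 7 alternatives, 203 in all, 157 kept direction and side, 13 dropped under 2-fold, 1 turned, and 32 were no longer measured at the raised floors, those of Isg15 and Ifit2 among them.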

Other observations

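A few brighter genes of the pathway lists differed by less than 2-fold and were chosen here after their values were seen. Wars, the tryptophanyl-tRNA synthetase that interferon gamma induces, was highest in the B16 lung on each of its 3 probe sets. The brightest over the 3 arrays read 549 and 423 in the B16 and LLC lungs, against 390 in the control lung, and another read 583 and 370, against 323 in the control lung, 1.81-fold higher in the B16 lung. Stat3, a transcription factor of interleukin 6 and related cytokines, read 545 and 429, against 347.5 in the control lung, and its second probe set 286 and 225, against 169 in the control lung. Ifitm1, an antiviral membrane protein, read 558 and 519, against 295 in the control lung, while its relative Ifitm3 read 1614 and 1907, against 1512 in the control lung.

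Genes on the arrays were also split by the response element letters in their promoter windows. Of 186 measured genes with a match, 4.3% were higher by 2-fold or more and 3.23% lower by 2-fold or more in the B16 lung than in control (median −0.021), against 3.06% and 4.82% of 4605 genes without a match (median −0.0096). In the LLC lung the shares of 185 genes with a match were 5.95% and 2.7%, against 3.82% and 2.92% of 4630 genes without. These 185 include the members Isg15, Ifit1 and Ifit3. Split by the gamma-activated site letters, 4.45% of 382 genes with a match were higher and 7.59% lower by 2-fold or more in the B16 lung, against 2.99% and 4.51% without. In the LLC lung the shares were 6.75% and 2.86% of 385 genes with a match, against 3.66% and 2.91% without. These differences were not tested.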
